A study of Homo sapiens with 6 samples.

Results

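The genes described here are 10 amino acid sensors and inhibitors of mTORC1, followed in HT29 cells, a human colorectal adenocarcinoma line, after depletion of histidine or of tryptophan. They were chosen with earlier results of these data known and were found by their symbols in the gencode 44 annotation. Each symbol matched 1 of the 60676 genes listed. All groups were HT29 cells whose genotype the labels give as WT, and the HT29 line is known to carry mutant p53. The groups differed in 48 h of control medium (untreated), histidine-depleted medium or tryptophan-depleted medium. Each group had 2 libraries of polyadenylated RNA, 6 in all. Nothing in the sources used here says that the samples of a group were separate cultures, so the p-values measure only the spread between these samples, which may be technical. Medium lacking histidine was RPMI-based, that lacking tryptophan was made from DMEM F-12, and both were given dialyzed serum, whereas HT29 cells were routinely grown in DMEM. For the control cells of the RNA sequencing the base medium is not given in the sources used here. In its proteomics of the same depletions the paper names full RPMI as the control medium. The loss of the amino acid and any difference in base medium therefore cannot be told apart in either comparison with untreated cells. The same holds for the comparison of both depletions with each other, whose base media differed.

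mTORC1 is the kinase complex that drives translation and cell growth and restrains autophagy while amino acids are plentiful. Amino acids act on it at the lysosome through the Rag GTPases, where RagA or RagB pairs with RagC or RagD, and these are switched off by the GATOR1 complex, which GATOR2 opposes. The Sestrins and CASTOR1 bind GATOR2 when leucine or arginine is scarce, DDIT4 (REDD1) works through the TSC complex, and DEPTOR and AKT1S1 (PRAS40) bind the kinase complex itself. Many of these genes are also transcriptional targets of stress pathways: SESN2 and DDIT4 are known targets of ATF4, the factor induced by uncharged tRNA, and RRAGC and RRAGD of the lysosomal factors TFEB and TFE3. RNA levels report neither the protein nor the activity of mTORC1.

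Counts assigned to genes summed to 46390819 to 64388876 per library, and are called reads here. These sums are above the average number of read pairs per sample in the labels, and whether a count stands for a read or a pair is not given in the sources used here. In untreated cells 10 of 10 markers of colon epithelium had more than 3 reads in each library, as did 8 of 10 after histidine depletion and 9 of 10 after tryptophan depletion. Their summed level was 7961 to 8405 length-scaled reads (reads per kilobase of exon, brought to the same sum in every library), against 1.77 to 1.88 for 13 markers of blood, vessel and stromal cells, with KIT, TPSAB1 and CPA3 at 0 reads in all 6 libraries. After histidine depletion the colon markers summed to 7807 to 8243 and the other markers to 1.08 to 1.22, and after tryptophan depletion to 11124 to 11243 and 0.851 to 0.856. Of the 13 other markers, 5 had more than 3 reads in each library of untreated cells, and 4 did after each depletion. CDX1, an intestinal transcription factor, was at 0 reads in both histidine-depleted libraries. After histidine depletion single markers shifted more than the sum: 7 of 10 were lower and 3 higher (median log2 -0.55). Of all tested genes 38.2% were lower and 39.1% higher there. LGALS4 was 2.96-fold and CDX2 2.6-fold lower, and KRT20 3.33-fold higher. After tryptophan depletion 3 markers were lower and 4 higher (median 0.098), with KRT20 5.22-fold higher, where 34.8% of all tested genes were lower and 36.1% higher. The part of these marker differences in the results was not tested.

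Of the 10 genes, 8 reached an average of 10 normalized counts and were tested, while CASTOR1 and RRAGD were too low. With limma and Benjamini-Hochberg adjustment over all tested genes, 7 of the 8 passed an adjusted p of 0.05 after histidine depletion: RRAGC, AKT1S1 and CASTOR2 were higher, and DEPTOR, SESN1, SESN2 and DDIT4 lower. Across all genes 77.3% passed, 39.1% higher and 38.2% lower, so most expressed genes were called alongside them. After tryptophan depletion 4 were higher (DDIT4, RRAGC, SESN2 and CASTOR2) and 3 lower (SESN1, DEPTOR and SESN3), where 70.8% of all genes passed, 36.1% higher and 34.8% lower. When both depletions were compared directly, 8 of 8 passed, with RRAGC, AKT1S1 and SESN3 higher after histidine depletion and the other 5 lower, where 76.7% of all genes passed, 38.7% higher and 38% lower. The groups of these 8 genes did not overlap in any of the comparisons, which with 2 libraries a group also held for 88.1% of all tested genes after histidine depletion, 84.1% after tryptophan depletion and 88.6% between the depletions. The median absolute log2 fold change of the 8 was 1.00 after histidine depletion (all tested genes 0.668), 0.91 without tryptophan (all tested genes 0.452) and 1.13 between the depletions (all tested genes 0.652). The signed medians were -0.22, 0.41 and -0.61, against 0.01, 0.013 and 0.011 for all tested genes. Because the genes were chosen with earlier results of these data known, these medians cannot show that the set changed more than other genes. The comparisons share libraries and are not independent of each other. In bulk RNA, fewer cells of a kind and less RNA per cell cannot be told apart.

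**Figure D1:**
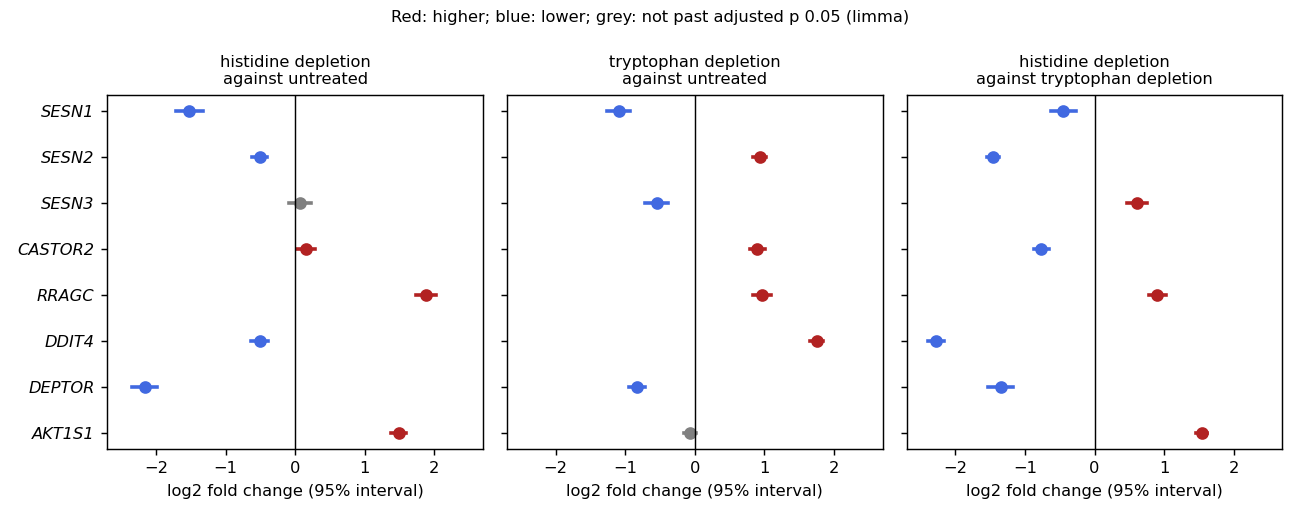
Log2 fold change of normalized counts (x axis) with its 95% interval (bar) for the 8 tested genes (rows) in each comparison, 2 libraries per group. DDIT4 and SESN2 lie below 0 after histidine depletion and above 0 after tryptophan depletion, RRAGC lies above 0 in both, and SESN1 and DEPTOR lie below 0 in both.

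Promoters were read to show which known motifs lie close to the starts of these genes. The 250 bases before the annotated start were taken from a set of 35116 RefSeq promoters (GRCh38.p14). This set held promoters of 6 of the 10 genes: SESN1 (with 3 starts), SESN2, SESN3, CASTOR1, RRAGC and DDIT4. They were searched on both strands for CACGTG (the E-box bound by TFEB and TFE3), ACGTG (the core bound by hypoxia-inducible factors, which also lies inside CACGTG), TTNCATCA (a CARE form bound by ATF4) and GTAAACA (a FOXO site). The sequences shown are those of RRAGC, which was higher after both depletions, and of DDIT4 and SESN2, which went lower after histidine and higher after tryptophan depletion. They run 5′ to 3′ on the strand of the gene, with motif matches in capitals, and cover chr1:38859773-38860022 on the minus strand for RRAGC, chr10:72273674-72273923 on the plus strand for DDIT4 and chr1:28259268-28259517 on the plus strand for SESN2.
RRAGC: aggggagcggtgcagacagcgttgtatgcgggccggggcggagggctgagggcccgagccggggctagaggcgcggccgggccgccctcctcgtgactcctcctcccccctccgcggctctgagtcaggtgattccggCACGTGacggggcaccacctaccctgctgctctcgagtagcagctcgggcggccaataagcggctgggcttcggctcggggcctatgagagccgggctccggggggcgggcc
DDIT4: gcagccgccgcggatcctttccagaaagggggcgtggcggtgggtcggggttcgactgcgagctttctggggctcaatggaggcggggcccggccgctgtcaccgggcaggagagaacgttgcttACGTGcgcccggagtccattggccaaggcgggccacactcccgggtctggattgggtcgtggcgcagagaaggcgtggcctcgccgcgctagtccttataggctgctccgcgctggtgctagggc
SESN2: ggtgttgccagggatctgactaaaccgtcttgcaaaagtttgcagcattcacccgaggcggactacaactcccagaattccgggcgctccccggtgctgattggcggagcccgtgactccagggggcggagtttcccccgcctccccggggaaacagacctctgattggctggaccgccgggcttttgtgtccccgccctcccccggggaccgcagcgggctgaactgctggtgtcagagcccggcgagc
RRAGC held CACGTG starting 112 bases before the start, and DDIT4 held ACGTG at 125 bases. Of 35116 promoters of this length in the table, 6.34% held CACGTG and 18.5% ACGTG. Neither TTNCATCA, present in 3.14%, nor GTAAACA, present in 2.98%, was in the window of any of the 6 genes, and SESN1, SESN2, SESN3 and CASTOR1 held none of the 4 motifs. A match is a description of the sequence and not a binding site.

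Among the Sestrins, the leucine sensor SESN2 (chr1:28259518-28282491, plus strand) fell after histidine depletion and rose after tryptophan depletion. Its normalized counts were 4823 and 4763 in untreated and 3291 and 3420 in histidine-depleted libraries, and, in the separately normalized tryptophan table, 4790 and 4714 in untreated and 8842 and 9224 in tryptophan-depleted libraries. Both histidine-depleted libraries were thus below, and both tryptophan-depleted libraries above, every untreated library. The log2 fold change was -0.51 ± 0.051 (SE, limma, adjusted p = 1.77e-09) after histidine depletion. It was 0.93 ± 0.047 (limma, adjusted p = 4.87e-41) after tryptophan depletion, a 1.9-fold rise. On the common scale of all 6 libraries SESN2 was 2.75-fold lower after histidine than after tryptophan depletion (log2 -1.46 ± 0.041, limma, adjusted p = 2.18e-15).

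SESN1 (chr6:108984309-109094846, minus strand), a Sestrin known as a target of FOXO factors and of p53, which is mutant in this line, fell after both depletions. Untreated libraries had 683 and 774 normalized counts and histidine-depleted libraries 258 and 246. On the tryptophan side untreated libraries had 678 and 766 and depleted libraries 328 and 346. The depleted libraries lay far below the untreated pair in both tables. The fall was 2.89-fold after histidine depletion (log2 -1.52 ± 0.092, limma, adjusted p = 1.50e-13) and 2.14-fold after tryptophan depletion (log2 -1.09 ± 0.083, limma, adjusted p = 2.20e-25). Between the depletions it was 1.36-fold lower after histidine depletion (log2 -0.45 ± 0.087, limma, adjusted p = 1.73e-04).

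SESN3 (chr11:95165513-95232541, minus strand), a FOXO target in other settings, fell after tryptophan depletion. It had 608 and 631 normalized counts in untreated and 654 and 648 in histidine-depleted libraries. The log2 fold change was 0.073 with a 95% interval of -0.084 to 0.23 (limma, adjusted p = 0.385). With quantile normalization it was called higher, at a log2 fold change of 0.29 (limma, adjusted p = 0.0018). In the tryptophan table it had 604 and 624 in untreated and 404 and 434 in depleted libraries (log2 -0.55 ± 0.081, limma, adjusted p = 9.70e-10). The direct test gave a 1.52-fold higher level after histidine than after tryptophan depletion (log2 0.61 ± 0.072, limma, adjusted p = 5.49e-07). The 3 Sestrins thus had 3 patterns.

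Of the CASTOR proteins, the arginine sensor CASTOR1 (chr22:30285117-30289622) was close to undetected. It had 1 and 4 reads in untreated, 5 and 3 in histidine-depleted and 1 and 2 in tryptophan-depleted libraries, counts at which a change was not detectable. On the same strand 46% of its exonic bases are shared with ENSG00000248751, which had 0 reads in every library, and how reads matching both genes were counted is not given in the sources used here. Its relative CASTOR2 (chr7:74964705-75031528, plus strand), which is also known to bind GATOR2, was far better covered. Its normalized counts were 1180 and 1158 in untreated and 1283 and 1313 in histidine-depleted libraries. The difference was small, 0.15 ± 0.062 on the log2 scale (limma, adjusted p = 0.0303), and lost its call with DESeq2 (adjusted p = 0.123). With each library left out the log2 fold change was 0.13 to 0.17. In the tryptophan table it had 1172 and 1146 in untreated and 2157 and 2169 in depleted libraries, a 1.87-fold rise (log2 0.90 ± 0.056, limma, adjusted p = 1.81e-32). Between the depletions CASTOR2 was 1.7-fold lower after histidine depletion (log2 -0.77 ± 0.05, limma, adjusted p = 1.73e-10).

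The value of CASTOR2 is uncertain in 2 ways. The pseudogene CASTOR3P, whose name marks it as a copy of the family and with which reads could be shared, had 224 to 493 reads per library. It was 1.83-fold higher after tryptophan depletion (log2 0.87 ± 0.096, limma, adjusted p = 4.01e-15). After histidine depletion its groups overlapped, with a log2 fold change of 0.068 and a 95% interval of -0.16 to 0.29 (limma, adjusted p = 0.577). Besides, 11.7% of its exonic bases lie opposite RCC1L, which had 2557 to 3918 reads, and whether counting used strand is not given in the sources used here.

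RRAGC (chr1:38838198-38859772, minus strand) encodes RagC, which with RagA or RagB brings mTORC1 to the lysosome. It rose after both depletions, more after histidine depletion. Normalized counts were 620 and 703 in untreated and 2486 and 2381 in histidine-depleted libraries, a 3.68-fold rise (log2 1.88 ± 0.067, limma, adjusted p = 6.10e-18). The tryptophan table gave 616 and 695 in untreated and 1251 and 1295 in depleted libraries, a 1.94-fold rise (log2 0.96 ± 0.066, limma, adjusted p = 1.70e-28). The 3 groups were clear of each other, with untreated lowest and histidine-depleted highest. The direct difference was 1.87-fold (log2 0.90 ± 0.061, limma, adjusted p = 2.82e-10). Its relative RRAGD, the other partner of RagA and RagB and also a known TFEB target, had 0 reads in 5 libraries and 1 read in the remaining histidine-depleted library. A count of 0 allows up to 3 reads, so no comparison of RRAGD could be made at this depth.

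Among the inhibitors, DDIT4 (chr10:72273919-72276036, plus strand), the stress-induced REDD1, had the largest change of the 8 after tryptophan depletion. It had 3151 and 3502 normalized counts in untreated and 2232 and 2428 in histidine-depleted libraries (log2 -0.51 ± 0.059, limma, adjusted p = 2.98e-08). For tryptophan it had 3130 and 3466 in untreated and 10809 and 11311 in depleted libraries, a 3.35-fold rise (log2 1.75 ± 0.048, limma, adjusted p = 5.28e-71). Of all genes tested, 7.46% had a larger absolute log2 fold change in that comparison. Histidine-depleted libraries were the lowest and tryptophan-depleted libraries the highest, 4.84-fold apart on the common scale (log2 -2.28 ± 0.053, limma, adjusted p = 2.05e-16).

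DEPTOR (chr8:119873717-120050918, plus strand), which binds mTOR in both of its complexes, fell after both depletions. It had 1774 and 2107 normalized counts in untreated and 392 and 475 in histidine-depleted libraries, a 4.47-fold fall (log2 -2.16 ± 0.086, limma, adjusted p = 5.32e-17) and the largest change among the 8 in that comparison. In the tryptophan table it had 1762 and 2085 in untreated and 1090 and 1071 in depleted libraries, a 1.78-fold fall (log2 -0.83 ± 0.059, limma, adjusted p = 2.31e-27). In counts the untreated libraries differed from each other more than the depleted pairs did, yet no pair overlapped another. DEPTOR was 2.54-fold lower after histidine than after tryptophan depletion (log2 -1.35 ± 0.086, limma, adjusted p = 1.38e-10).

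AKT1S1 (chr19:49869033-49878459, minus strand) encodes PRAS40, an AKT substrate that blocks access to mTORC1. It had 8733 and 9126 normalized counts in untreated and 25058 and 25059 in histidine-depleted libraries, a 2.81-fold rise (log2 1.49 ± 0.051, limma, adjusted p = 2.39e-18). In the tryptophan table it had 8674 and 9031 in untreated and 8343 and 8521 in depleted libraries. The log2 fold change was -0.07 with a 95% interval of -0.16 to 0.022 (limma, adjusted p = 0.173). It was called lower with quantile normalization (log2 -0.15, limma, adjusted p = 3.99e-04) and with edgeR (log2 -0.075, adjusted p = 0.0269). The histidine-depleted pair stood alone, 2.91-fold above the tryptophan-depleted pair (log2 1.54 ± 0.038, limma, adjusted p = 4.61e-16). The inhibitors were thus not alike: after histidine depletion AKT1S1 rose while DEPTOR and DDIT4 fell, and after tryptophan depletion DDIT4 rose while DEPTOR fell.

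**Figure D2:**
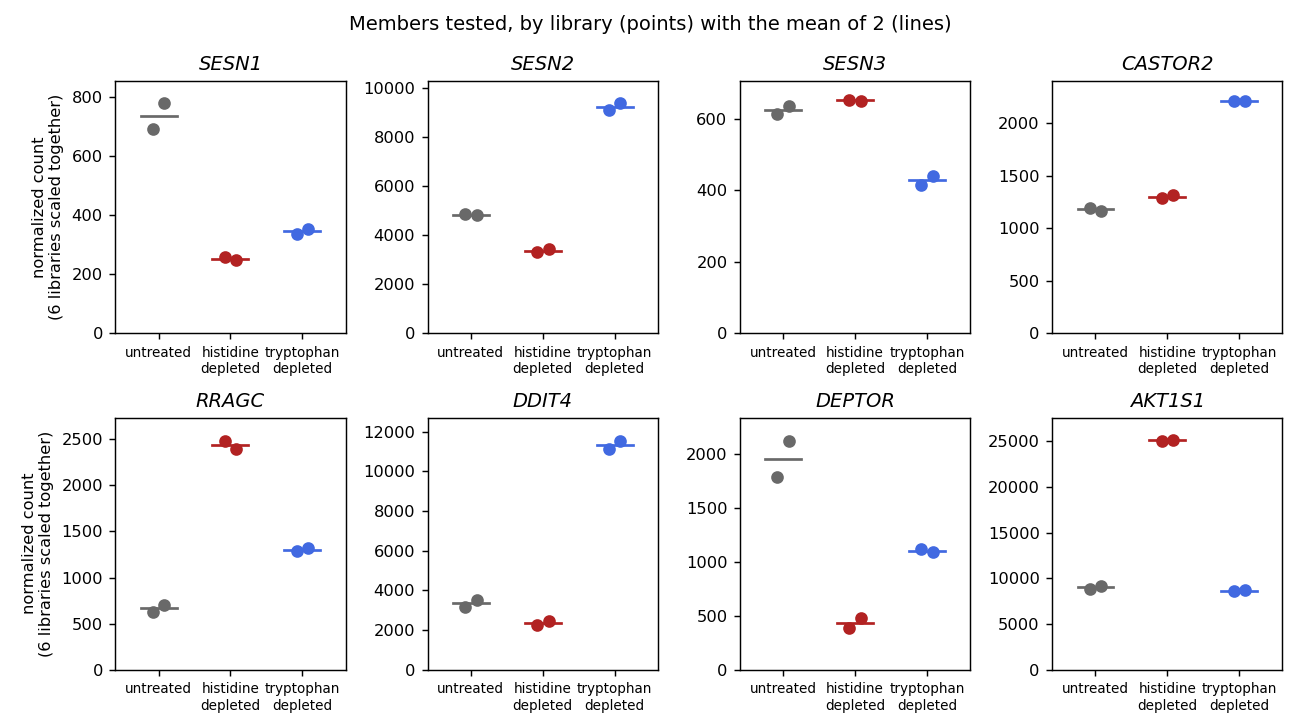
Normalized counts of the 8 tested genes, scaled over all 6 libraries together (y axis, from 0), for each library (points) with the mean of 2 (lines) in untreated, histidine-depleted and tryptophan-depleted cells. DDIT4 and SESN2 are highest after tryptophan depletion, RRAGC and AKT1S1 after histidine depletion, and SESN1 and DEPTOR in untreated cells.

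Levels of different genes were compared as length-scaled reads, as for the markers above. In untreated cells DDIT4 was at 117 ± 8.44 (SD, n = 2), AKT1S1 at 116 ± 3.33 and SESN2 at 103 ± 1.14. DDIT4 and AKT1S1 overlapped, whereas SESN2 (102 to 104) was below both. DEPTOR followed at 54.9 ± 6.53, CASTOR2 at 10.6 ± 0.166, RRAGC at 9.6 ± 0.828, SESN1 at 7.44 ± 0.641 and SESN3 at 4.35 ± 0.102. From SESN2 down, no neighbours in this order overlapped, and CASTOR2 (10.5 to 10.7) lay closest to the gene under it, RRAGC (9.02 to 10.2). After histidine depletion AKT1S1 led at 302 ± 1.43, followed by DDIT4 at 76.2 ± 4.9, SESN2 at 67.1 ± 2.14 and RRAGC at 32.9 ± 0.85. DEPTOR (10.3 to 12.6) and CASTOR2 (10.8 to 11.1) overlapped there. After tryptophan depletion DDIT4 led at 380 ± 9.49 and SESN2 followed at 190 ± 4.34, ahead of AKT1S1 at 107 ± 0.837.

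**Figure D3:**
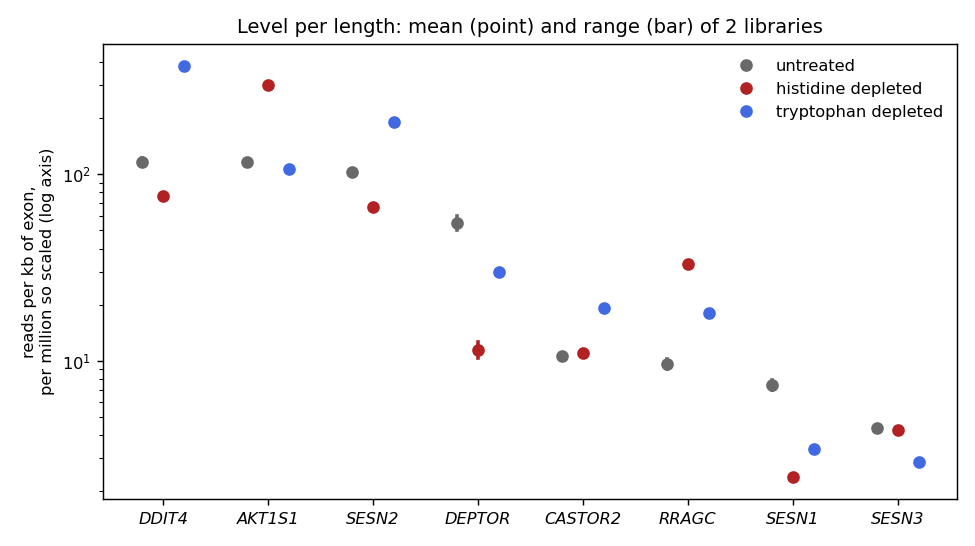
Length-scaled reads (reads per kilobase of exon, scaled to the same sum per library; y axis, log), as mean (points) and range (bars) of 2 libraries for the 8 tested genes. AKT1S1 stands highest after histidine depletion at 302, and DDIT4 after tryptophan depletion at 380.

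The rest of the sensing pathway was described through lists of its complexes. The counts of each list here and below stand beside high shares over all tested genes. After histidine depletion 39.1% of all tested genes were higher and 38.2% lower, and after tryptophan depletion 36.1% were higher and 34.8% lower. Of 9 mTOR complex subunits and assembly factors, 3 were higher and 6 lower after histidine depletion (median log2 -0.20) and 5 higher and 2 lower after tryptophan depletion (median 0.18). RICTOR, the scaffold of mTORC2, rose 2.86-fold after histidine depletion (limma, adjusted p = 1.48e-18) and 1.53-fold after tryptophan depletion (limma, adjusted p = 1.03e-24). MTOR itself was 1.5-fold lower after histidine depletion (limma, adjusted p = 1.56e-10) and 1.15-fold higher after tryptophan depletion (limma, adjusted p = 6.33e-05). RPTOR, the scaffold of mTORC1, was 1.13-fold and 1.21-fold higher (limma, adjusted p = 0.0101 and 4.83e-07). Of 5 GATOR2 subunits, the targets of the Sestrins and CASTORs, 2 were higher and 3 lower after histidine depletion (median -0.35), and 5 were lower after tryptophan depletion (median -0.42). WDR59 fell 2-fold and 1.39-fold respectively. Of 7 subunits of GATOR1 and of KICSTOR, which anchors it to the lysosome, 3 were higher and 4 lower after histidine depletion, and 2 higher and 4 lower after tryptophan depletion. BMT2 (SAMTOR), an S-adenosylmethionine sensor that binds these complexes and was kept on the same list, was higher in both comparisons (log2 0.23 and 0.26).

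Among 11 Rag and Ragulator partners, 6 were higher and 3 lower after histidine depletion (median 0.36), and 5 higher and 3 lower after tryptophan depletion (median 0.093). FLCN, which with FNIP1 forms a GTPase-activating complex for RagC and RagD, rose 2.37-fold after histidine depletion (limma, adjusted p = 1.16e-14) and 1.65-fold after tryptophan depletion (limma, adjusted p = 4.95e-22). FNIP1 rose 3.41-fold after histidine depletion (limma, adjusted p = 2.21e-19). LAMTOR2, a Ragulator subunit, fell 2.48-fold and 1.39-fold. RRAGA was 1.31-fold and 1.28-fold higher, and RRAGB was 1.56-fold lower after histidine depletion, with a log2 fold change of -0.15 after tryptophan depletion (limma, adjusted p = 0.127). In the list of TSC, Rheb and upstream kinases 4 of 8 were higher and 4 lower after histidine depletion, and 2 higher and 4 lower after tryptophan depletion. TSC1 rose 2.33-fold and TSC2 fell 1.59-fold after histidine depletion, and both were 1.21-fold higher after tryptophan depletion.

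Of the mTORC1 substrates 3 of 10 were higher and 5 lower after histidine depletion (median -0.31), against 7 higher and 0 lower of 9 after tryptophan depletion (median 0.59), 2 not passing. TFE3, a lysosomal transcription factor, rose 4.23-fold after histidine depletion (limma, adjusted p = 4.35e-21) and 1.63-fold after tryptophan depletion (limma, adjusted p = 6.90e-30). GRB10 fell 2.27-fold after histidine depletion and rose 1.77-fold after tryptophan depletion. In the direct comparison GRB10 was 4.06-fold and EIF4EBP1 2.67-fold lower after histidine depletion. Targets of TFEB and TFE3 were higher in 12 and lower in 0 of 17 after histidine depletion (median 0.65), with 5 not passing, and higher in 11 and lower in 4 after tryptophan depletion (median 0.25). SQSTM1, an autophagy receptor, rose 12.6-fold and 2.96-fold. Other targets on this list differed: after tryptophan depletion WIPI1 rose 4.45-fold and GLA fell 2.22-fold. Between the depletions WIPI1 was 4.11-fold lower after histidine depletion. ATF4 targets were higher in 16 and lower in 3 of 19 after tryptophan depletion (median 0.98), and higher in 5 and lower in 9 after histidine depletion (median -0.11). ATF4 RNA itself had a log2 fold change of 0.011 after tryptophan depletion, with overlapping groups and a 95% interval of -0.093 to 0.12 (limma, adjusted p = 0.855), and was 1.21-fold lower after histidine depletion (log2 -0.28 ± 0.054, limma, adjusted p = 5.91e-05). ASNS, the asparagine synthetase and a typical ATF4 target, was 1.95-fold higher after tryptophan depletion (limma, adjusted p = 1.89e-23). After histidine depletion its log2 fold change was -0.10 (limma, adjusted p = 0.327). The ATF4 targets named for their large changes were split there: ATF3 was 2.82-fold higher, NUPR1 3.36-fold lower and SLC7A11 2.65-fold lower. In the direct comparison 16 of 19 ATF4 targets were lower and 1 higher after histidine depletion (median -1.08), and 14 of 17 TFEB and TFE3 targets were higher and 2 lower (median 0.52). The lists were chosen with earlier results known, and their counts are to be read against the background shares above. Further lists hold targets of factors known to act on some of these genes. Of 18 p53 targets, 8 were higher and 6 lower after histidine depletion (median 0.044), and 10 higher and 6 lower after tryptophan depletion (median 0.24). Of 13 FOXO targets, 8 were higher and 3 lower (median 0.66), and 6 higher and 2 lower (median 0.076). Of 15 hypoxia genes, 10 were higher and 3 lower (median 0.56), and 9 higher and 2 lower (median 0.19).

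**Figure D4:**
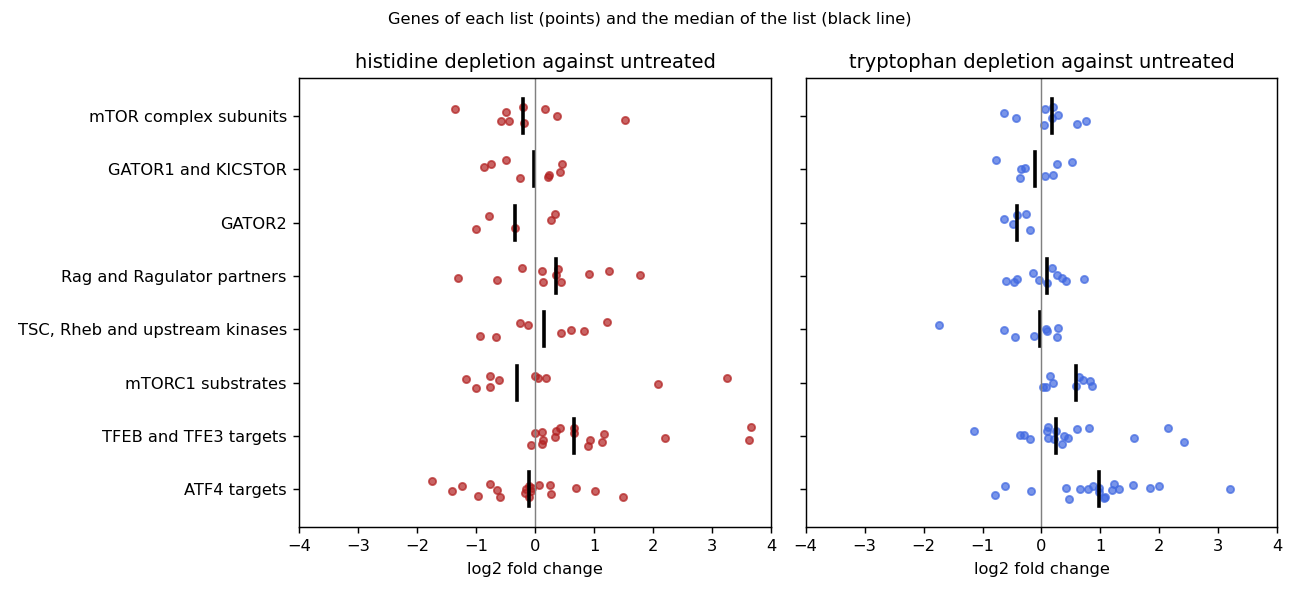
Log2 fold change against untreated cells (x axis) of the tested genes of each list (points; BMT2 is with GATOR1 and KICSTOR) with the median of the list (black line), after histidine depletion (left) and tryptophan depletion (right). The ATF4 target median is 0.98 on the right and -0.11 on the left, and the TFEB and TFE3 target median is 0.65 on the left and 0.25 on the right.

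The genes with the most similar pattern were found by the smallest Euclidean distance between centred log2 values over the 6 libraries, among 11014 protein-coding genes. SESN2 was nearest to DNAJC10, ARHGEF2 and ALPK1 (distances 0.0777, 0.0802 and 0.0844), and DDIT4 to WARS1, FADS3 and TSKU (0.17, 0.218 and 0.226). RRAGC was nearest to TNFRSF12A, RAB9A and COQ10B (0.115, 0.134 and 0.169). AKT1S1 was nearest to BZW1, PPIE and ATP6V0A1 (0.0666, 0.0731 and 0.0762). SESN1 was nearest to MZT2A (0.12), SESN3 to PUS1 (0.035), CASTOR2 to CD164 (0.0511) and DEPTOR to SLC19A1 (0.16). With 3 conditions these distances are largely set by 2 differences.

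A property that the choice of genes did not use is their own demand for the depleted amino acids. Histidine codons made up 5.08% of SESN1 (28 of 551 codons), 4.17% of SESN2, 3.86% of SESN3 and 3.67% of DEPTOR, against a median of 2.43% over 19755 protein-coding genes. They made up 3.01% of RRAGC, 2.43% of CASTOR2, 1.17% of AKT1S1 (3 of 256) and 0.862% of DDIT4 (2 of 232). Tryptophan codons made up 1.67% of SESN2, 1.29% of DDIT4, 1.27% of SESN1, 1.02% of SESN3, 0.781% of AKT1S1, 0.733% of DEPTOR, 0.608% of CASTOR2 and 0.251% of RRAGC. The median over protein-coding genes was 1.13%, so 3 of the 8 tested genes lay above it and 5 below. These shares describe the coding sequence and were not related to the changes by a test.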

How the data were processed

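RNA of HT29 cells was sequenced as stranded mRNA libraries with UMI adapters. Per the paper's methods and the submitters' processing notes, the authors aligned reads with STAR 2.7.10a to GRCh38, counted exons with HTSeq 2.0.5 and gencode 38 and normalized with DESeq2. The deposited values are a non-negative signal, counts over size factors, and came as 1 table per depletion with the same untreated libraries. The methods describe counting on protein-coding genes, but the tables list 60676 genes. Use of UMIs and strand, and reads matching several genes, are not given in the sources used here. Dividing by the step of each library gave whole reads for 100% of values (tolerance 0.01), 46390819 to 64388876 assigned to genes per library. Names and coordinates came from gencode 44, which held 60357 of the identifiers (319 not).

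Genes averaging 10 or more normalized counts were tested two-sided with limma 3.58.1 (R 4.3.3, mean-variance trend, no robust option) on log2(normalized count + 1), which understates changes of low genes. Benjamini-Hochberg adjusted p-values under 0.05 were called. Each depletion was tested within its table, and both were compared in a fit of the recovered reads of all 6 libraries, scaled by median of ratios. With 2 residual degrees of freedom in each depletion's fit, limma lent 21.2 prior degrees of freedom after histidine and 135 after tryptophan depletion, and the very small p-values rest on that pooled spread. On recovered reads edgeR 4.0.16 called 7169 genes higher and 7111 lower without histidine, and 6490 higher and 6349 lower without tryptophan. Alternatives were pseudocounts of 0.5 and 8, other filters, no trend, quantile normalization, edgeR, DESeq2 1.42.0, a replicate block, other sets of libraries and each library left out. The code was tested on simulated data. The members and lists were chosen with earlier results of these data known. Named genes were the members, 8 fixed pathway genes, up to 3 genes of each list with the largest change past the threshold (mean of at least 100, groups apart) and the 3 nearest genes per member. Not every gene selected is printed. TMEM55B and SOD2 were not matched. Tables were made with pandas 2.3.3 and numpy 2.4.6 and plots with matplotlib 3.10.9, all in Python 3.11.15.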

Additional observations from a re-analysis of the deposited data

How the results depend on the processing

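No value of the 8 tested genes reversed under any alternative. The counts of genes called higher and lower kept to within 1.5 times of those reported, and the call of each gene was unchanged in 136 of 136 values between the depletions, 105 of 112 after histidine depletion and 109 of 112 after tryptophan depletion. The exceptions were CASTOR2 and SESN3 after histidine and AKT1S1 after tryptophan depletion. Of its 14 alternatives, CASTOR2 lost its call without a filter (limma, adjusted p = 0.0546), without the trend (limma, adjusted p = 0.0764) and with DESeq2 (adjusted p = 0.123). It also lost the call without untreated replicate 2 and without either histidine-depleted replicate, at log2 fold changes of 0.13 to 0.17. Leaving out a library leaves a group with a single library, so the spread then comes from the other libraries. SESN3 was called only with quantile normalization, at a log2 fold change of 0.29 (limma, adjusted p = 0.0018). AKT1S1 was called lower with quantile normalization (log2 -0.15), with edgeR (-0.075) and without untreated replicate 1 (-0.099). With each library left out, log2 fold changes ranged from 1.67 to 1.82 for DDIT4 after tryptophan depletion and from -2.30 to -2.02 for DEPTOR after histidine depletion. The replicate numbers are shared by the groups but mark no known pairing (correlation of deviations 0.112 between untreated and histidine-depleted and -0.0534 between untreated and tryptophan-depleted libraries). With the replicate block 3 members were higher and 4 lower after histidine depletion, 4 and 3 after tryptophan depletion, and 3 and 5 between the depletions, as without it, and over all genes 14432, 12766 and 14069 were called against 14130, 12721 and 14006. A crossed replicate block, chosen after seeing the data, called 14192 genes between the depletions. CASTOR1 and RRAGD had no more than 5 reads in any library and were not tested. Of exonic bases, 23.1% of RRAGC and 46% of CASTOR1 are shared with genes listed at 0 reads. How such reads were counted is not given in the sources used here. Causes of these changes were not tested.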
